A study of Gallus gallus with 10 samples.

Results

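The genes described here are those lying nearest to regions whose DNA methylation differed in the sperm of roosters after heat conditioning as embryos. They were taken from the table in which the study lists these regions, and every distinct Ensembl gene identifier in it was looked up in the brain count table of the same study. Of 89 identifiers, 54 matched a gene of the count table, which holds 11324 genes in all. Of these 54 genes, 44 have a symbol and 10 have only an identifier. The 35 that did not match comprise 15 without a symbol, 7 small RNAs and 13 other named genes. They include HMGI-C, TMEM114, GAL3ST1, LHX3, SEPT4, PIPOX, DAZL, HTR6, GIPC3, EPHB1, FOXB2 and TLE1, and all 35 were not analysed here.

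DNA methylation places a methyl group on cytosine, mostly before guanine in vertebrates, and dense methylation at a promoter usually goes with a silent gene. Most of this methylation is erased and rebuilt between generations in mammals, so a mark that differs in sperm need not reach the offspring. The study examined sperm methylation as a possible route for traits passed on by the father. Being nearest to a region is a statement of position and does not show that the region controls the gene.

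RNA was measured in the preoptic anterior hypothalamus (PO/AH), the brain area that holds the thermostat of the body and takes part in fever. Naïve Cobb broiler chicks, which received no injection, were compared at 3 days of age with chicks of that age and strain taken 6 h after an intracranial injection of hsa-miR-200a-3p mimic. Each group had 5 libraries, each made from 15 ng of RNA, and no chick in either group is labelled as heat conditioned. The mimic is a synthetic duplex that acts as the mature microRNA, and microRNAs lower the transcripts that they pair with. The labels place the injection in the PO/AH itself, whereas the text of the study also places it in the third ventricle. Neither group was of chicks given a control mimic, so the mimic and the injection cannot be told apart. Nothing in the labels says that the libraries are of separate chicks, so p-values measure the spread between these libraries, which may be technical.

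Counts were of unique molecular identifiers (UMIs), which tag each transcript once at its 3′ end, so levels of different genes were compared without dividing by length. A level is given in CPM, the UMI count scaled to a common library total, and errors are SD over 5 libraries. Library totals ran from 2104121 to 5503185 UMIs in the naïve group and from 3598695 to 4511597 in the mimic group. Naïve library 7 had the smallest total and held 26.9 CPM of FOLR1, a gene of choroid plexus and meninges, against at most 0.723 CPM in any other library. SLC6A13, from the same marker list, was instead highest in naïve libraries 3 and 6, at 13.2 and 13.1 CPM, with 1.01 CPM in naïve library 7 and at most 0.261 CPM in a mimic library. Of the genes fixed as hypothalamic markers, 0 of 7 could be matched by name, so the dissected area was not checked in this way. In bulk tissue, fewer cells of a type and less RNA per cell cannot be told apart.

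By naïve level, the 54 genes lay from the 0.830 to the 97.3 percentile of all genes in the count table. Their median naïve level was 14.6 CPM, against 12.5 CPM over all genes. A level above 100 CPM was held by 8 genes, 22 lay between 10 and 100 CPM, 17 between 1 and 10 CPM and 7 under 1 CPM. The filter on low counts was passed by 39 of the 54 genes, a share of 72.2%, against 75.8% of all genes. The median naïve level of these 39 was 24.9 CPM, beside 25.1 CPM for all 8585 genes tested.

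The most abundant was GPR37L1 (ENSGALG00000000607), an orphan receptor that in mammals is expressed by astrocytes. Its level was 433, 439, 441, 564 and 658 CPM in naïve libraries 2, 3, 4, 6 and 7. After the mimic it was 488, 347, 455, 494 and 379.8 CPM in libraries 2, 4, 6, 9 and 10, the order used throughout. The groups overlapped, although 2 mimic values were under the lowest naïve value. ARF5 (ENSGALG00000005622), a small GTPase of vesicle traffic, held 293, 373, 363, 394 and 248 CPM in the naïve libraries. The mimic libraries held 317, 366, 324, 392 and 401 CPM, so 1 of them lay above the highest naïve library. SCG3 (ENSGALG00000043583), a protein of the dense-core granules from which neuropeptides are released, was at 188, 197, 220.1, 237 and 191 CPM in the naïve libraries. It was at 172, 227, 161, 212 and 194 CPM after the mimic, and the groups overlapped in most of their range.

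**Figure D1:**
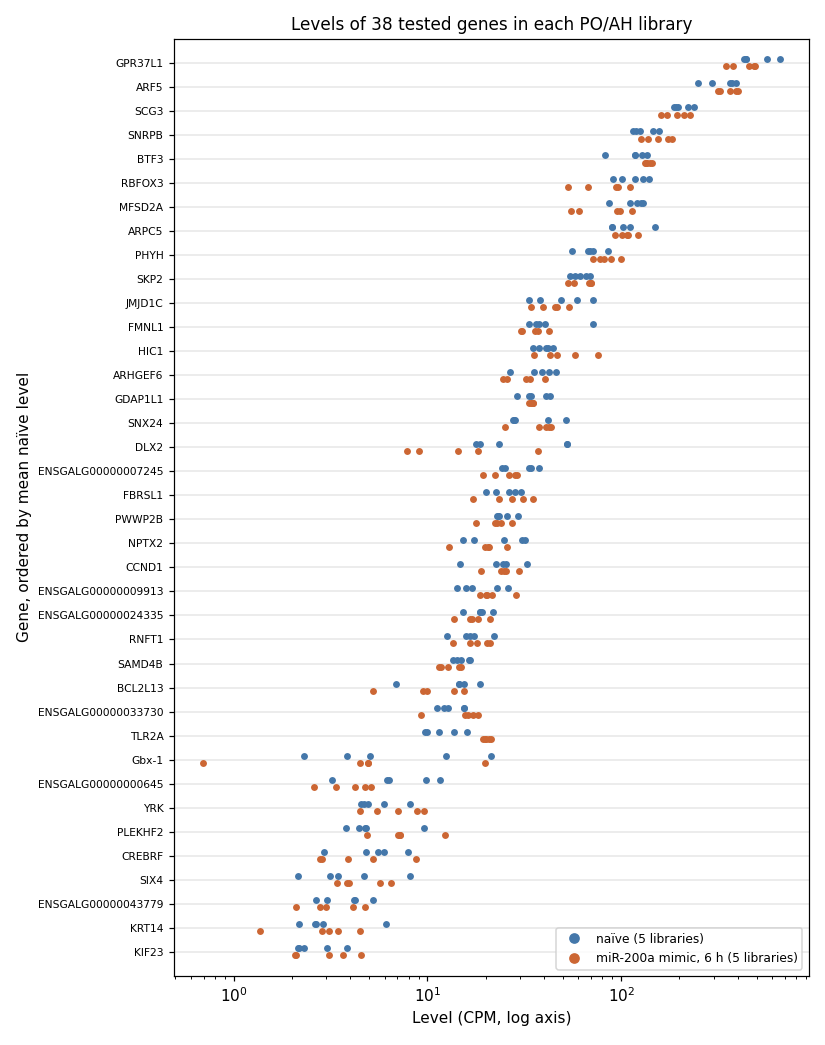
Level of 38 of the tested genes in every PO/AH library, in CPM on a log axis, with naïve libraries in blue and mimic libraries in orange, ordered by mean naïve level. Mean naïve levels run from 507.0 CPM for GPR37L1 to 2.70 CPM for KIF23, and single libraries reach beyond these means. The groups overlap for every gene drawn but TLR2A, and Gbx-1 and DLX2 spread widely within both groups.

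At the study's thresholds (adjusted p of 0.05, fold change of 1.5, highest count of at least 30), 0 of the 39 genes were called higher and 0 lower by edgeR after the mimic. Over all genes tested, 0.140% were called higher and 0.0233% lower, 0.163% in either direction, so with 39 genes a count of 0 does not set them apart. DESeq2 at the study's settings, run on the 8585 genes that passed the filter, called 1 of the 39 higher, TLR2A, and 0 lower. Over all genes tested it called 0.419% higher and 0.0582% lower, and limma-voom called 0 of the 39. Run without the filter, DESeq2 at these settings also called TLR2A (adjusted p = 0.0174 by DESeq2). Without naïve library 7, edgeR again called 0 of the 39. An unadjusted edgeR p under 0.05 was found for 1 gene in the higher direction (2.56% of 39) and for 3 in the lower direction (7.69%), where all genes gave 3.90% and 3.55% (7.45% in either direction). The groups did not overlap for 1 gene, which was higher, and for 0 in the lower direction. Among all genes the groups were apart in 1.09% for higher and 0.513% for lower levels (1.61% in either direction).

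The median change of the 39 genes was close to that of all genes, while their quartiles lay wider apart. The median log2 fold change of mimic over naïve was −0.03 with quartiles of −0.24 and 0.17, against −0.0042 with quartiles of −0.16 and 0.13 for all genes tested. It was below 0 for 22 of the 39 genes (56.4%), where 50.8% of all genes were below 0. The 95% interval of the log2 fold change lay inside a 1.5-fold change in either direction for 17 genes (43.6%, against 50.6% of all genes). For the other 22 it reached past 1.5-fold, so the data leave room for a change of that size. Among the 30 tested genes with more than 10 CPM in the naïve group, the median coefficient of variation between libraries was 18.8% in naïve and 16.0% in mimic chicks. It was 16.7% and 16.1% among all 6090 such genes.

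**Figure D2:**
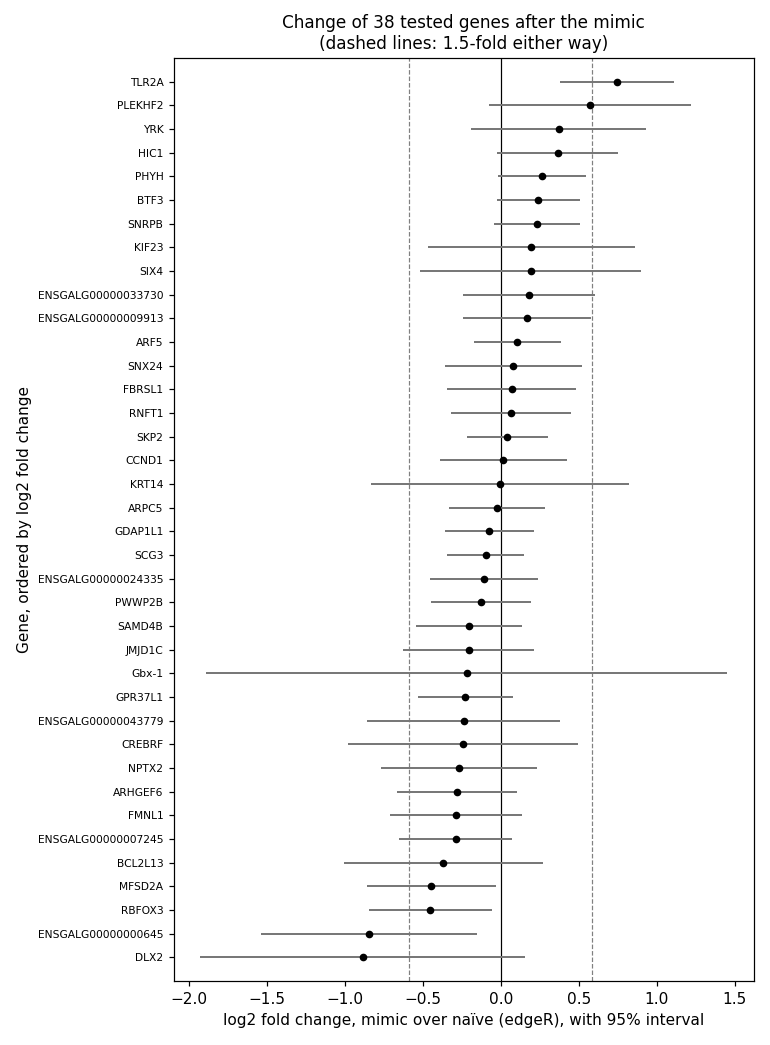
Log2 fold change of mimic over naïve for 38 of the tested genes (points, edgeR) with its 95% interval (lines) and dashed lines at 1.5-fold in either direction. The points run from −0.89 for DLX2 to 0.74 for TLR2A, and 17 intervals lie inside the dashed lines.

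Of the receptor and signaling genes, 2 were tested, and the groups were apart only for TLR2A. TLR2A (ENSGALG00000034722), a Toll-like receptor of the innate immune system that binds bacterial lipoproteins, was at 9.76, 9.995, 11.5, 16.0 and 13.7 CPM in the naïve libraries. After the mimic it was at 21.3, 19.8, 19.9, 20.8 and 19.4 CPM. Every mimic library lay above every naïve library. The coefficient of variation was 3.77% in the mimic and 21.7% in the naïve group. The counts were 54, 57, 43, 83 and 27 UMIs in the naïve libraries. They were 76, 76, 88, 90 and 75 UMIs in the mimic libraries. Counts of this size vary by sampling alone, so the small mimic spread is not read as a result. The means were 12.2 ± 2.64 and 20.3 ± 0.763 CPM (SD, n = 5 each), a log2 fold change of 0.74 (SE 0.17, 95% interval 0.38 to 1.11). The adjusted p was 0.151 by edgeR's quasi-likelihood test and 0.0158 by DESeq2 at the study's settings, and over all alternatives it ran from 0.0155 to 0.462. TLR2A is also in a list of genes that the study chose on these libraries, so its direction here is not independent of that list.

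Of 11 other genes of Toll-like receptor signaling, 2 could be identified by name, through that same list, and edgeR called 0 of them in either direction. TLR1B, a Toll-like receptor that in birds pairs with the TLR2 type, went from a mean of 2.40 to 8.64 CPM (log2 fold change 1.91, SE 0.38, adjusted p = 0.0633 by edgeR). NFKBIZ, a nuclear regulator of NF-κB targets, went from 3.497 to 7.59 CPM (log2 fold change 1.07, SE 0.30, adjusted p = 0.364 by edgeR). Microglia, the resident macrophages of the brain, express Toll-like receptors, and their markers are given beside TLR2A for that reason. Of 7 microglial markers, 6 were identified, all from lists the study chose on these libraries, and 5 of the 6 had a higher mean after the mimic. Those lists hold genes that the study found changed in these libraries, so an unchanged marker would not be in them. As for TLR2A, their directions, calls and summed level are not independent of that choice. The same holds for TLR1B and NFKBIZ. C1QB and C1QC, which code for chains of the complement protein that opens the classical pathway, were called higher. TREM2, a receptor of microglia for lipids, had the only lower mean, with 17.6 CPM in naïve and 9.72 CPM in mimic libraries (log2 fold change −0.85, adjusted p = 0.320 by edgeR), and it is named because of this direction. The summed level of the 6 markers was 80.5 to 116.6 CPM in naïve and 158 to 222 CPM in mimic libraries, and no marker was at 0 in any library. The part of these markers in the TLR2A result was not tested.

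By edgeR no receptor or signaling gene was called, and DESeq2 called only TLR2A. YRK, a tyrosine kinase of the Src family first described in chicken, had a mean of 5.64 CPM in naïve and 7.07 CPM in mimic libraries (log2 fold change 0.37). FZD2, a Wnt receptor, was below the filter, with 25 UMIs over the naïve and 15 over the mimic libraries.

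**Figure D3:**
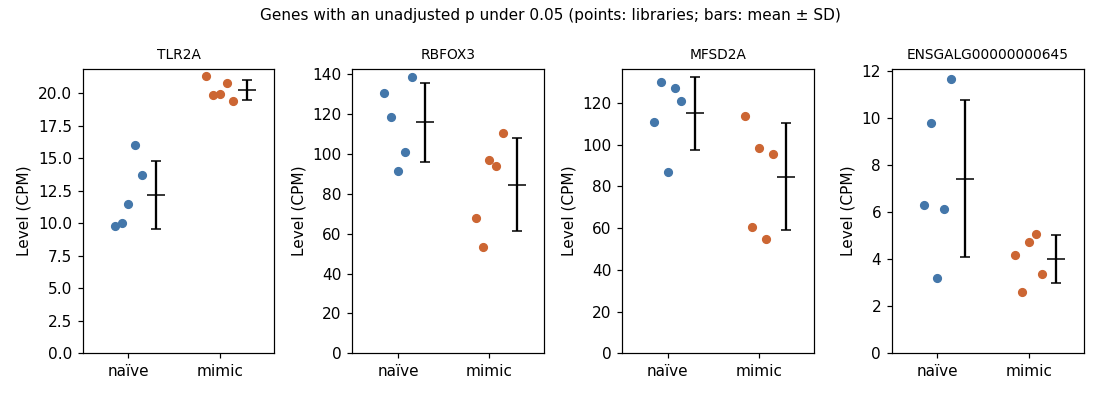
Level in CPM of TLR2A, RBFOX3, MFSD2A and ENSGALG00000000645, the genes with an unadjusted p under 0.05, in each naïve (blue) and mimic (orange) library, with mean ± SD as bars. The TLR2A groups are apart, at 9.76 to 16.0 and 19.4 to 21.3 CPM, and the groups of the other genes overlap.

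Neural and synaptic genes included several of the most abundant members. All 5 that were tested had a log2 fold change below 0, where 50.8% of all genes tested were below 0. Their median was −0.23 and 0 of them were called. The 5 genes share the same libraries, so their signs are not independent. The size of some rested on single libraries, with −0.00089 for GDAP1L1 without naïve library 3 and −0.12 for GPR37L1 without naïve library 7. RBFOX3 (ENSGALG00000032889), the splicing factor known as the neuronal marker NeuN, was at 130.3, 118, 91.2, 101 and 138 CPM in the naïve libraries. After the mimic it was at 67.8, 53.2, 96.8, 94.0 and 111 CPM. The groups overlapped, with mimic libraries 2 and 4 below the lowest naïve library and the other 3 within the naïve range. The means were 115.8 ± 19.8 and 84.5 ± 23.3 CPM (SD, n = 5 each), a log2 fold change of −0.45 (SE 0.18, 95% interval −0.85 to −0.05, adjusted p = 0.612 by edgeR).

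GPR37L1 had means of 507.0 ± 101 and 432.7 ± 65.9 CPM and a log2 fold change of −0.23. SCG3 had means of 207 ± 21.2 and 193 ± 27.1 CPM and a log2 fold change of −0.10. NPTX2, a secreted pentraxin that gathers glutamate receptors at excitatory synapses, had 24.0 CPM in naïve and 19.97 CPM in mimic libraries (log2 fold change −0.27). GDAP1L1 had 36.1 and 34.6 CPM (log2 fold change −0.07), and its mimic libraries lay within 33.4 and 35.2 CPM. The remaining 3 neural genes were too low to test. VSTM2L had 43 UMIs over the naïve and 30 over the mimic libraries. SYNJ2, a phosphoinositide phosphatase of vesicle recycling, had 24 and 16 UMIs. PSD, an exchange factor for small GTPases at synapses, had 21 and 11 UMIs.

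Among enzymes and transporters, MFSD2A (ENSGALG00000003879) was the most abundant. It codes for the transporter that carries docosahexaenoic acid as lysophosphatidylcholine across the endothelium of the blood-brain barrier. Its level was 111, 129.8, 86.7, 127 and 121 CPM in the naïve libraries and 114, 60.5, 98.6, 55.0 and 95.3 CPM after the mimic. The groups overlapped, with mimic libraries 4 and 9 below the lowest naïve library. The means were 115.0 ± 17.5 and 84.6 ± 25.6 CPM (SD, n = 5 each), a log2 fold change of −0.44 (SE 0.19, 95% interval −0.86 to −0.03, adjusted p = 0.639 by edgeR). PHYH, which starts the breakdown of phytanic acid in peroxisomes, had 70.0 CPM in naïve and 83.7 CPM in mimic libraries, with a log2 fold change of 0.27. TPCN2, a cation channel of lysosomes, was below the filter and uneven, with 0 to 19 UMIs in a naïve and 0 to 11 in a mimic library.

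Developmental transcription factors were mostly low, with a median naïve level of 6.66 CPM over the 6 that matched. DLX2 (ENSGALG00000039436), a homeobox factor of inhibitory forebrain neurons, had the lowest log2 fold change of all 39 genes and the widest spread among those above 10 CPM. Its values by library, and those of Gbx-1, are given because of this spread, which was seen first. DLX2 was at 18.6, 23.3, 52.6, 17.9 and 52.7 CPM in the naïve libraries and at 14.3, 18.3, 37.2, 7.85 and 9.07 CPM after the mimic. The groups overlapped, and naïve libraries 4 and 7 stood apart from the other naïve libraries. The coefficient of variation was 54.6% in naïve and 68.4% in mimic libraries, at the 98.4 and 99.2 percentile of all tested genes above 10 CPM. The means were 33.0 ± 18.0 and 17.3 ± 11.8 CPM (SD, n = 5 each), a log2 fold change of −0.89 with a 95% interval of −1.93 to 0.15 (adjusted p = 0.724 by edgeR). Leaving out each library gave a log2 fold change from −0.64 without naïve library 4, and −0.67 without naïve library 7, to −1.39 without mimic library 6.

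Gbx-1 (ENSGALG00000042241) is a homeobox factor that in the mouse helps to form inhibitory neurons of the spinal cord. Its level was 5.06, 3.86, 12.5, 2.31 and 21.3 CPM in the naïve libraries. It was at 4.48, 4.96, 19.7, 0.693 and 4.92 CPM after the mimic, so the groups overlapped over nearly their whole range. The highest library held 30.7 times the lowest, the widest range of the 39 genes, and DLX2 came next with 6.71 times. For Gbx-1 the lowest, mimic library 9, held only 3 UMIs, against 42 in naïve library 7, so its ratio is uncertain. The 3 libraries with the most DLX2, naïve 4, naïve 7 and mimic 6, were also the 3 with the most Gbx-1, and mimic library 9 was lowest for both. These libraries come from both groups, and what else they share was not tested. Over the 39 tested genes, naïve library 7 was the highest library for 12 and mimic library 9 the lowest for 8. A high value in the former or a low value in the latter is thus not particular to this pair. The log2 fold change of Gbx-1 was −0.22 with a 95% interval of −1.89 to 1.45. Without naïve library 7 it was 0.29, and without mimic library 6 it was −1.14.

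**Figure D4:**
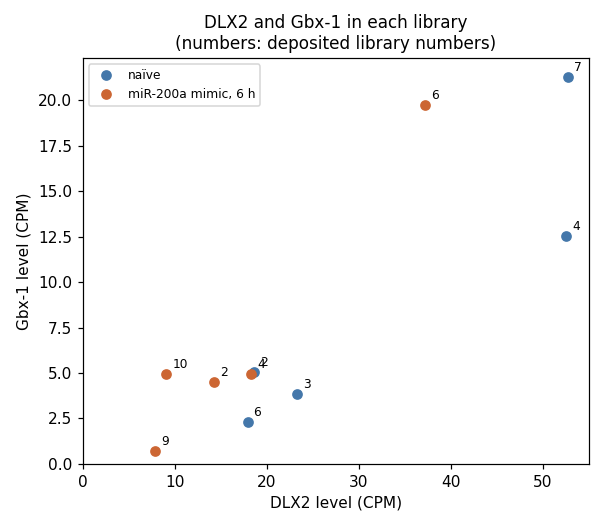
Level of Gbx-1 against level of DLX2, both in CPM, in each of the 10 libraries, with naïve libraries in blue, mimic libraries in orange and the deposited library numbers beside the points. Naïve 4, naïve 7 and mimic 6 hold the most of both genes, at 37.2 to 52.7 CPM of DLX2 and 12.5 to 21.3 CPM of Gbx-1.

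HIC1, a zinc finger repressor, spread less than DLX2 and Gbx-1, at 40.1 ± 3.74 CPM in naïve and 51.7 ± 15.6 CPM in mimic libraries (log2 fold change 0.36). Its coefficient of variation was 9.32% in naïve but 30.2% in mimic libraries, where library 2 held 75.6 CPM. Over all alternatives its log2 fold change ran from 0.19 to 0.47. SIX4, a homeobox factor of sensory organs and muscle, had 4.31 and 4.66 CPM (log2 fold change 0.19). The factors tied to Notch signaling were below the filter. RBPJ, the factor that carries the Notch signal to DNA, had 30 UMIs over the naïve and 24 over the mimic libraries. HES4, a repressor of the hairy family, had 32 and 12 UMIs. Fitted without the filter, HES4 had a log2 fold change of −1.24 (SE 0.53, adjusted p = 0.620 by edgeR). Of 11 other Notch genes fixed as a list, 0 could be identified by name.

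Among chromatin genes, 0 of the 3 tested were called. JMJD1C, of the jumonji family of histone demethylases, had 50.1 CPM in naïve and 43.9 CPM in mimic libraries (log2 fold change −0.21). FBRSL1 had 25.6 and 26.8 CPM (log2 fold change 0.07). PWWP2B, a protein with a histone-reading PWWP domain, had 24.9 and 23.0 CPM (log2 fold change −0.13). SUV39H2, a histone methyltransferase of heterochromatin, was below the filter with 59 UMIs over the naïve and 33 over the mimic libraries. JADE1, a subunit of a histone acetyltransferase complex, had 22 and 18 UMIs. Lists of 10 DNA methylation genes and 9 genes of histone H3 lysine methylation could not be tested, since 0 of either were identified by name.

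The cell cycle genes were all tested and 0 were called, with 3 log2 fold changes between 0.02 and 0.20, of which that of CCND1 fell below 0 with upper-quartile factors and with limma-voom. SKP2, which marks cell cycle inhibitors for destruction, had 61.8 CPM in naïve and 63.7 CPM in mimic libraries (log2 fold change 0.04). CCND1, a D-type cyclin that starts the cycle, had 23.9 and 24.6 CPM (log2 fold change 0.02). KIF23, a kinesin of the dividing cell's midbody, had the lowest mean naïve level of the genes tested, with 2.70 CPM against 3.09 CPM in mimic libraries (log2 fold change 0.20). The sign for SKP2 and CCND1 also turned when single libraries were left out.

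Genes of actin and vesicle traffic ranged from 2.42 to 334 CPM in the naïve group, and 3 of the 6 tested had a log2 fold change above 0. ARF5 had means of 334 ± 61.2 and 359.9 ± 38.4 CPM and a log2 fold change of 0.10. ARPC5, a subunit of the complex that nucleates branched actin, had 108 and 106 CPM (log2 fold change −0.02). FMNL1, a formin of white blood cells that lengthens actin filaments, had 43.8 and 35.3 CPM (log2 fold change −0.29, and −0.06 without naïve library 7, which held 71.5 CPM). ARHGEF6, a guanine nucleotide exchange factor, had 38.0 and 31.3 CPM (log2 fold change −0.28). SNX24, a sorting nexin, had 35.6 and 37.9 CPM (log2 fold change 0.08). PLEKHF2, an endosomal protein, was low and uneven. Its means were 5.48 ± 2.36 and 7.75 ± 2.75 CPM, and the log2 fold change was 0.57 with an adjusted p of 0.722 by edgeR. Without mimic library 2, which held 12.3 CPM, it was 0.35. MESDC1, an actin-bundling protein, was below the filter with 52 and 50 UMIs.

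Genes of RNA and protein handling and of survival were all tested. SNRPB, a core protein of the spliceosome, had 132 ± 18.0 CPM in naïve and 155 ± 24.1 CPM in mimic libraries (log2 fold change 0.23). BTF3, which protects newly made polypeptides at the ribosome, had 116.6 ± 20.3 and 137 ± 5.21 CPM (log2 fold change 0.24). Of 7 other Sm-type spliceosome genes fixed as a list, 0 were identified by name. RNFT1, a membrane ubiquitin ligase, had 16.9 and 17.9 CPM (log2 fold change 0.07). SAMD4B, an RNA-binding protein of the Smaug family, had 15.1 and 13.1 CPM (log2 fold change −0.20) and the smallest coefficient of variation of any of the 30 genes above 10 CPM in the naïve group, 8.84%. BCL2L13, a mitochondrial protein of the BCL2 family, had 14.1 and 10.7 CPM (log2 fold change −0.37). CREBRF, a regulator of the unfolded protein response, had 5.45 and 4.69 CPM (log2 fold change −0.24).

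Genes with an identifier only made up 10 of the 54, and 6 were tested. ENSGALG00000000645 was at 6.33, 9.82, 3.20, 6.16 and 11.7 CPM in the naïve libraries and at 4.20, 2.61, 4.76, 5.08 and 3.37 CPM after the mimic. The groups overlapped, because naïve library 4 was as low as the mimic libraries, and the other 4 naïve libraries lay above all mimic libraries. The means were 7.43 ± 3.33 and 4.004 ± 1.02 CPM (SD, n = 5 each), a log2 fold change of −0.85 (SE 0.32, 95% interval −1.54 to −0.15, adjusted p = 0.596 by edgeR). ENSGALG00000007245 had 30.9 and 25.1 CPM (log2 fold change −0.29). In the other direction, ENSGALG00000033730 had 13.4 and 15.2 CPM (log2 fold change 0.18) and ENSGALG00000009913 had 19.2 and 21.8 CPM (log2 fold change 0.17). Below the filter, ENSGALG00000031896 is named because of its values, with 59 UMIs over the naïve and 16 over the mimic libraries. Without the filter its log2 fold change was −1.67 (SE 0.51, adjusted p = 0.431 by edgeR). The 3 other untested identifiers had 6 to 26 UMIs over the naïve libraries and 9 to 22 over the mimic libraries. Of the remaining named genes, KRT14, a keratin of epithelia, had 3.29 and 3.06 CPM (log2 fold change −0.0041). NELL1, a secreted protein of bone and neural tissue, had 15 and 16 UMIs.

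The table of regions also gives where each region lies relative to its gene, which allowed the genes to be set side by side by that place. Of the 11 tested genes with a region at the promoter and transcription start, 6 had a log2 fold change above 0 and 5 below 0, with a median of 0.04. Regions in introns belonged to 13 tested genes with a median of −0.02. Exons gave 4 genes with a median of 0.08, and transcription ends gave 3 with a median of 0.08. Of the 8 tested genes whose region was intergenic, 7 were below 0, where 50.8% of all genes tested were below 0. The median of the 8 was −0.17, and the eighth was TLR2A with the highest value of all. Among the 7, the signs of Gbx-1 and KRT14 turned when single libraries were left out. No gene of any place was called by edgeR, and these medians are a description of small sets in the same libraries.

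On the Z chromosome, which male birds carry in a pair and females once, lie SKP2, BTF3 and SNX24. These genes were looked at because the labels do not give the sex of the chicks. Over the 10 libraries SKP2 ran from 53.1 to 70.0 CPM, BTF3 from 82.8 to 144 CPM and SNX24 from 25.2 to 51.9 CPM. No library was highest for more than 1 of the 3 genes. So few genes cannot show the sex of a library, and the balance of the sexes between groups was not tested.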

How the data were processed

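The authors made bulk MARS-seq libraries (15 ng RNA each) and, per the labels and the methods of the study, used cutadapt for trimming, STAR for mapping to 3′ ends of galGal5 genes and HTSeq for counting UMIs, in versions not stated there. The values used are the deposited UMI counts of 11324 genes. The 10 other deposited sample columns, which hold normalized counts, and the columns of the authors' own comparison were not used. Groups came from the condition in each column name.

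In R 4.3.3, 8585 genes passed filterByExpr (minimum count 10) and were compared by edgeR 4.0.16 (TMM, robust quasi-likelihood, two-sided) with Benjamini-Hochberg adjustment over all 8585. A call needed an adjusted p of 0.05, a 1.5-fold change and a highest count of 30. The biological coefficient of variation was 21.2%. CPM used TMM-scaled totals of tested genes. The closest libraries of a group differed by a chi-square of 8.54 per gene, far from the agreement of a library deposited again.

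The genes and lists were chosen with earlier results of these data known. Every matched gene with a symbol was named, apart from 1 that enters the counts but is not reported here, with values by library where an unadjusted p was under 0.05, groups did not overlap or the naïve level was among the 3 highest. Identifiers without a symbol were named for the 2 smallest p in each direction, and genes of other lists where called or among the 2 smallest p. Lists of neurons, astrocytes, oligodendrocytes, hypothalamus, blood, germ cells, Notch, DNA and histone methylation, cell cycle and spliceosome genes had 0 members identified by name in the counts. The list of choroid plexus and meninges had 2 of 4. DAZL, of the germ cell list, has an identifier that did not match the counts. Alternatives were RLE and upper-quartile factors, DESeq2 1.42.0, limma-voom 3.58.1, other filters and thresholds, and leaving out each library.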

Additional observations from a re-analysis of the deposited data

Results flagged for a closer look

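In each group of 5 libraries, the gap between the highest or lowest library and its nearest neighbour was divided by the range of the group and compared with Dixon's 95% critical value of 0.71. Of 78 groups checked, 5 exceeded it, and chance gives about 1 in 20. For Gbx-1, mimic library 6 held 19.7 CPM and the next library 4.96 CPM. Naïve library 7, the smallest, stood above the other naïve libraries for 3 genes. It held 9.63 CPM of PLEKHF2 (next 4.802), 71.5 CPM of FMNL1 (next 40.2) and 6.08 CPM of KRT14 (next 2.89). As counts these were 19, 141 and 12 UMIs, so the values of PLEKHF2 and KRT14 rest on few UMIs. For ENSGALG00000009913, mimic library 10 held 28.5 CPM and the next library 21.5 CPM. Over all 39 tested genes, naïve library 7 was the highest of the 10 libraries for 12 and the lowest for 7, and mimic library 9 was the lowest for 8.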

How the results depend on the processing

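The filter on low counts left 15 of the 54 genes untested. The number of genes called higher was 1 (TLR2A) under DESeq2 at the study's settings, at default settings and, as an alternative chosen after seeing the data, on every gene with a count (adjusted p = 0.0158, 0.0155 and 0.0174, log2 fold change 0.75 in each). It was 0 under every other alternative, and 0 genes were called lower under any. Leaving out each library gave TLR2A an adjusted p of 0.106 to 0.462 by edgeR, with a log2 fold change of 0.67 to 0.87. DESeq2 was not run with libraries left out. The median log2 fold change of the genes ran from −0.09 to −0.0042. CCND1 changed sign to −0.0099 with upper-quartile factors, to −0.0054 with limma-voom and to −0.0045 with a minimum count of 30, and ARPC5 changed to 0.022 with limma-voom. The cause was not tested. Leaving out each library turned the sign of 7 of the log2 fold changes given here, with ranges of −0.085 to 0.11 for ARPC5, −0.098 to 0.15 for CCND1, −0.050 to 0.20 for FBRSL1, −1.14 to 0.29 for Gbx-1, −0.17 to 0.23 for KRT14, −0.0039 to 0.18 for RNFT1 and −0.0013 to 0.10 for SKP2. The mean mimic level of GDAP1L1 was 33.8 CPM when scaled by library totals. No paired analysis was possible because the numbers in the column names could not be matched to the replicate numbers in the labels, and no label ties a number to a shared chick or batch.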
